A study of Mus musculus with 6 samples.

Results

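Myelin is made by oligodendrocytes, and the 9 genes described here mark steps in the life of that cell. They are Mbp, Mag, Mog, Mobp and Cnp, which are used by myelinating cells and are called the mature members, and Olig1, Olig2, Sox10 and Pdgfra, which are already used by precursors and are called the lineage members. The genes were chosen by name, as 9 of the 49568 gene names in the expression files, with their values in these samples known. The choice rested on the levels in 1 non-Dbx1 sample set against the other 5 and on mature against lineage genes within each sample, so those values are given as descriptions with no test.

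The data are RNA sequencing of 6 pools, each of 15 neurons picked from the preBötzinger complex (preBötC), the brainstem site that generates inspiratory rhythm. All 6 mice were Dbx1CreERT2; Rosa26tdTomato animals at postnatal day 2, the offspring of Dbx1CreERT2 mothers treated with tamoxifen and Rosa26tdTomato fathers, so Dbx1 and non-Dbx1 cells shared 1 genotype and treatment. The 3 Dbx1 samples (Pos1, Pos2 and Pos3) were neurons with tdTomato fluorescence, which marks descendants of cells that expressed Dbx1 when tamoxifen was given. The 3 non-Dbx1 samples (Neg1, Neg2 and Neg3) were cells picked as neuronal somata that lacked tdTomato, a gate that a cell from an unrecombined Dbx1 progenitor would also pass. Each sample came from a different mouse, and the cells were drawn 1 at a time into a micropipette from slice tissue.

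Oligodendrocytes pass from a dividing precursor, which carries the receptor PDGFRα and the transcription factors OLIG2, OLIG1 and SOX10, through a committed and newly formed stage to the myelinating cell. At the last step the genes of myelin proteins are turned on strongly, while Pdgfra is turned off and the Olig and Sox10 genes stay on. In the rodent brainstem this begins around birth and proceeds over the first weeks. Neurons are not known as a main source of these messages, and in samples of pooled cells a smaller number of expressing cells and less RNA per cell cannot be told apart.

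Levels are reads scaled to exon length and to the library total (RPKM), as the authors deposited them, behind which stood 6464675 to 9432958 reads on genes per sample. The neuronal markers were present in all 6 samples, led by Tubb3, Stmn2, Snap25 and Nefl. The summed RPKM of the 6 neuronal genes was lowest in Neg1, at 1449, against 1589 to 2332 in the others. Over all genes Neg1 also stood apart, since it held the highest value of 3794 of the 17614 genes tested (21.5%), against 14.6% to 17.3% for each other sample. The main comparisons between the groups are therefore also given without Neg1.

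The sequence before the start of 4 mature members is shown, a pair that was high in Neg1 (Mag and Cnp) and a pair that was not (Mog and Mobp). The windows come from RefSeq on GRCm38.p6, lie on the strand of the gene and end before its annotated first exon. Capitals mark matches on either strand to the SOX core, searched only as ACAAAG and ACAATG, and to the E-box CANNTG. SOX10 and OLIG2-type factors bind letters of these kinds. Other forms of the SOX core were not searched. The Mag window is chr7:30914923-30915172, minus strand. The Cnp window is chr11:100574689-100574903, plus strand. The Mog window is chr17:37023399-37023648, minus strand. The Mobp window is chr9:120149492-120149706, plus strand.
Mag: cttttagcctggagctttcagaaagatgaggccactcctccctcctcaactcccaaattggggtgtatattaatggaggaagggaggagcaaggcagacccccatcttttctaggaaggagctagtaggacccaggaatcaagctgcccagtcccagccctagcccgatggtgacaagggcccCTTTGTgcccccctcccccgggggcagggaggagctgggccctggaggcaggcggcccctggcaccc
Cnp: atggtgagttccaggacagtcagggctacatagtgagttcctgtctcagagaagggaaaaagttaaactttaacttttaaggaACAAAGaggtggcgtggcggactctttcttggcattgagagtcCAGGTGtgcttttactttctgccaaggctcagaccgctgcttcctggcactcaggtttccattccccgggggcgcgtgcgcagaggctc
Mog: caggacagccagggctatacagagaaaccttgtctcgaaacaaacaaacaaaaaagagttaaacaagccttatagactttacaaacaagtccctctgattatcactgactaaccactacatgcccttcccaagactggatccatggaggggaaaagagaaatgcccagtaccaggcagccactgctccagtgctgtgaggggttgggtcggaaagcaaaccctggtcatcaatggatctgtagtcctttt
Mobp: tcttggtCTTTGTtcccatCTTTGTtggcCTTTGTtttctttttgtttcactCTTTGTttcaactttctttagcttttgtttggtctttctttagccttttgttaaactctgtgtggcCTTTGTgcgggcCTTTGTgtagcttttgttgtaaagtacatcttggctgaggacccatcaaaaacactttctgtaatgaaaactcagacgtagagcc

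The Mobp window held 6 SOX core matches, those of Mag and Cnp 1 each and that of Mog 0. Among 32851 mouse promoters, 25.2% held a SOX core in 250 bases, the length of the Mag and Mog windows, and 22.6% in the 215 bases of the other pair. An E-box was matched only in the Cnp window, against 66.2% of promoters at 250 bases and 61.4% at 215. The motif counts did not follow the levels, since the window with most matches belonged to a gene near 0 in most samples. These matches describe letters in short windows and do not locate a bound site.

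Pdgfra, on chromosome 5 at 75152292 to 75198215, encodes the growth factor receptor that defines the oligodendrocyte precursor. It was low throughout, at 0.0840, 0.248 and 0 RPKM in Pos1, Pos2 and Pos3 and at 1.12, 0.453 and 0 in Neg1 to Neg3. The highest of these, in Neg1, rested on 54 reads, and a count of 0 in Pos3 or Neg3 allows up to 0.0576 RPKM by the limit of 3 reads. Such limits cover counting error only, because amplified reads are not independent molecules. The groups overlapped.

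Olig2, on chromosome 16 at 91225457 to 91228677, encodes the factor that specifies the lineage. Its levels were 1.50, 0.381 and 5.31 RPKM in Pos1 to Pos3 and 28.1, 0.0480 and 6.92 in Neg1 to Neg3. Neg1 was 4.07 times the next highest sample, Neg3, whereas Neg2 held a single read. The 2 extremes of the 6 samples thus both lay in the non-Dbx1 group.

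Olig1, the neighbouring gene at 91269772 to 91271933, encodes a related factor that promotes maturation. It was the only lineage member well above 0 in every sample. RPKM was 26.3, 10.6 and 63.9 in Pos1 to Pos3 and 62.4, 37.0 and 29.0 in Neg1 to Neg3. Pos3 was just above Neg1, and the groups overlapped. Gm15966, which shares 157 exon bases with Olig1 on the opposite strand, was listed at 0 in all samples. Olig1 made up 71.9% to 98.7% of the summed lineage RPKM in 5 samples and 45.3% in Neg1, where Olig2 and Sox10 were also high.

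Sox10, on chromosome 15 at 79154908 to 79165240, encodes the factor that drives myelin genes in oligodendrocytes and in Schwann cells. RPKM was 0, 3.52 and 0 in Pos1 to Pos3 and 46.0, 0 and 0.625 in Neg1 to Neg3. Neg1 was 13.1 times the next highest sample, Pos2. The gene was listed at 0 in 3 samples, from both groups, which allows up to 0.159 RPKM.

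Among the mature members, Cnp, on chromosome 11 at 100574904 to 100591729, encodes an enzyme of the myelin membrane that appears early in maturation. It was detected in every sample, at 6.50, 12.6 and 4.99 RPKM in Pos1 to Pos3 and at 136, 26.8 and 22.3 in Neg1 to Neg3. Neg1 was 5.07 times Neg2, the next highest. All 3 non-Dbx1 samples lay above all 3 Dbx1 samples, so the groups did not overlap with Neg1 or without it. The gene shares 154 exon bases with Dnajc7 on the opposite strand, and reads were counted without strand. Dnajc7 was lowest in Neg1, at 6.57 RPKM against 12.9 to 25.8 in the others.

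Mbp, on chromosome 18 at 82475146 to 82585637, encodes the basic protein that holds the cytoplasmic faces of compact myelin together. RPKM was 1.35, 1.87 and 3.45 in Pos1 to Pos3 and 155, 4.52 and 9.10 in Neg1 to Neg3. Neg1 was 17.1 times Neg3 and held 16406 recovered reads, against 176 to 1403 in the others. This was 0.254% of the reads on genes in Neg1. The groups did not overlap, with or without Neg1. The group means were 2.22 ± 1.09 RPKM for Dbx1 and 56.3 ± 85.8 for non-Dbx1 samples (SD, n = 3 each), the latter spread being set by Neg1.

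Mag, on chromosome 7 at 30899176 to 30914873, encodes the adhesion protein at the face of myelin next to the axon. RPKM was 2.22, 0.122 and 0 in Pos1 to Pos3 and 24.7, 0.161 and 5.88 in Neg1 to Neg3. Neg1 was highest and Neg3 second, while Neg2 lay among the Dbx1 samples, so the groups overlapped.

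Mobp and Mog encode proteins of compact myelin and of its outermost surface, and both are regarded as late genes. Mobp, on chromosome 9 at 120149707 to 120181484, was listed at 0 in all 3 Dbx1 samples, which allows up to 0.0535 RPKM. It was 0.0767, 0.246 and 1.34 RPKM in Neg1, Neg2 and Neg3, the value in Neg1 resting on 4 reads. The groups did not overlap, yet the highest sample was Neg3 and not Neg1. Mobp shares 79 exon bases with Gm38642 on the same strand, so its reads there are uncertain. Mog, on chromosome 17 at 37010743 to 37023398, was 0.905, 0.882 and 0.0796 RPKM in Pos1 to Pos3 and 0.514, 0.777 and 0.235 in Neg1 to Neg3. It rested on 1 to 13 reads per sample and its groups overlapped.

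**Figure D1:**
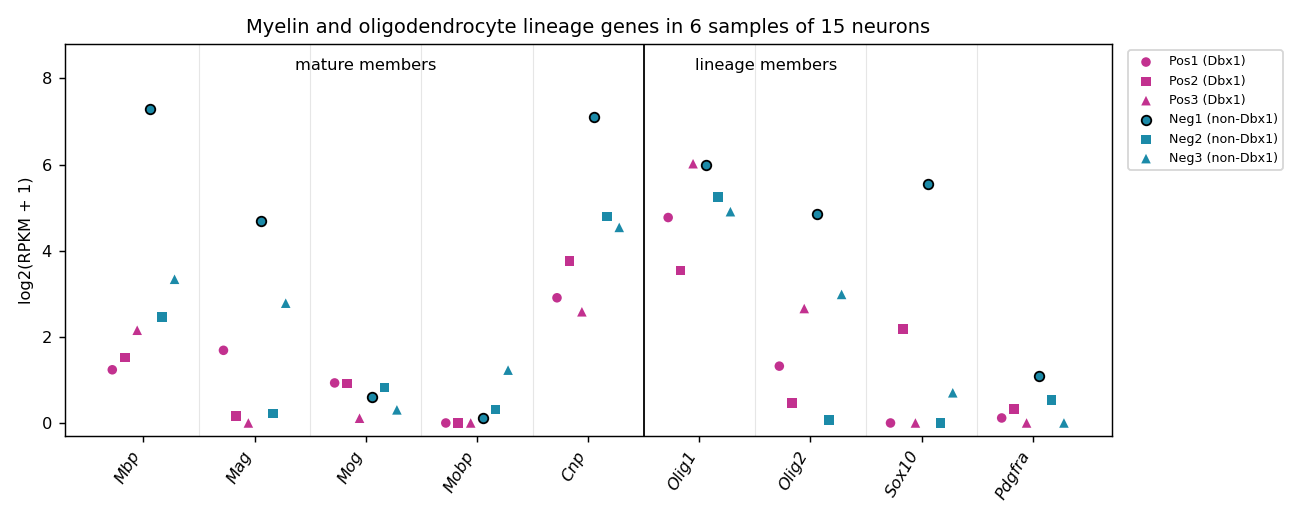
Levels of the 9 genes by sample, as log2(RPKM + 1) on the vertical axis. Each point is 1 sample of 15 neurons, in magenta for Dbx1 and blue for non-Dbx1 neurons, and Neg1 has a black outline. Neg1 is the highest point for Mbp, Mag, Cnp, Olig2, Sox10 and Pdgfra but not for Mog, Mobp or Olig1.

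Of the 9 members, 6 were highest in Neg1, 3 from each class. Over all genes tested, 21.5% were highest there, but the members were chosen on this contrast and nothing is read from the count. By the difference between Neg1 and the median of the other 5 samples in log2(RPKM + 1), the order was Sox10 (5.55), Mbp (5.14), Mag (4.47), Olig2 (3.54), Cnp (3.33), Olig1 (1.08), Pdgfra (0.97), Mobp (0.11) and Mog (-0.23). Thus 5 members exceeded a difference of 2, as did 3.46% of all genes tested, and 6 exceeded 1, as did 13.2%. Olig1 lay just above the value of 1 and Pdgfra just below it. The order of the low genes depends on the 1 added before the logarithm. With a pseudocount of 0.1, Mag (6.57) passed Mbp (5.45), Pdgfra (2.72) passed Olig1 (1.10) and 7 members exceeded 1. With Neg2 and Neg3 alone as the reference, 5 exceeded 1 and Mobp turned to -0.67, while Mog turned to 0.03. The share over all genes was not computed for these alternatives, so nothing is read from their counts. The 9 genes together took 0.400% of the reads on genes in Neg1 and 0.0145% to 0.0437% in the other samples.

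Mature and lineage members were then set against each other within each sample. Summed mature RPKM was 11.0, 15.4 and 8.51 in Pos1 to Pos3 and 316, 32.5 and 38.8 in Neg1 to Neg3. The 3 non-Dbx1 samples were all above the 3 Dbx1 samples. Summed lineage RPKM was 27.9, 14.8 and 69.2 in Pos1 to Pos3 and 138, 37.5 and 36.5 in Neg1 to Neg3. Here Neg1 was again highest, and Neg2 and Neg3 lay within the Dbx1 range. The ratio of the sums, mature over lineage, was 0.394, 1.04 and 0.123 in Pos1 to Pos3 and 2.30, 0.867 and 1.06 in Neg1 to Neg3. By sums, mature messages exceeded lineage messages most in Neg1.

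The mean of the logarithms gave another order, because it weights the nearly silent Mog and Mobp equally with Mbp. Mature minus lineage mean log2(RPKM + 1) was -0.20, -0.35 and -1.20 in Pos1 to Pos3 and -0.42, 0.26 and 0.29 in Neg1 to Neg3. On this scale Neg1 lay with the Dbx1 samples, at a mature mean of 3.95 and a lineage mean of 4.37. Both means were the highest of the 6 samples in Neg1, where those of the others ran from 0.97 to 2.44 for mature and from 1.46 to 2.17 for lineage members.

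Which class was higher also depended on gene length. The exon length that the deposited RPKM implies was 1.93 times the merged exon length of the annotation for Mbp, 1.94 times for Cnp and 1.60 times for Mag, and equal to it for Olig1. Over 15054 genes the median of this ratio was 1.27, and 35.9% exceeded 1.5. With merged lengths, the log difference in Neg1 became 0.21 and only 1 sample kept the mature level below the lineage level, against 4 with the deposited lengths. With Pdgfra alone standing for the precursor, the mature mean was higher in all 6 samples, by 2.87 in Neg1 and by 0.95 to 2.44 in the others. Comparisons of 1 gene between samples do not depend on its length.

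The comparison of Dbx1 with non-Dbx1 neurons asked whether the 9 genes differed between the groups. Differences (L2FC) are Dbx1 minus non-Dbx1 in log2(RPKM + 1), fitted with limma across 17614 genes detected in no fewer than 3 samples, with a Benjamini-Hochberg false discovery rate (FDR) threshold of 0.1. Neg1 is part of this contrast, so it is not independent of the choice of members. All 9 entered the fit, although Mobp did so only through the non-Dbx1 samples in which it was above 0. Over all genes, 1 was higher in non-Dbx1 samples at this FDR (0.00568%) and 0 genes were higher in Dbx1 samples (0.0%), while 436 (2.48%) and 480 (2.73%) had an unadjusted limma p under 0.05. The single call, named after its values were seen, was D930028M14Rik, a long non-coding RNA gene. The paper tested counts with DESeq2 at the same FDR threshold and called genes in both directions. It named Gata2 among those higher in non-Dbx1 neurons and Hif1a among those higher in Dbx1 neurons. The few calls in the limma fit therefore do not show that the groups hardly differed.

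None of the 9 members passed the FDR threshold in limma, nor did any with voom on recovered reads, and 2 of them, Cnp and Mbp, had an unadjusted p under 0.05. With voom, and in limma without Neg1, that was 1 member, Cnp. In the same direction it was 331 of 13940 genes with voom and 2.9% of all genes without Neg1. With a pseudocount of 0.1, Cnp and Mbp again had such a p (475 of 17614 genes in that direction). Mobp did too, but it entered the fit only through the non-Dbx1 samples, so it is not counted. The number was 3, Cnp, Mag and Mbp, with the replicate numbers as a block (379 of 17614). Without Neg2 it was 4, Cnp, Mag, Mbp and Olig2 (406 of 16509). Cnp alone had such a p without the mean-variance trend (482 of 17614) and with genes above 0 in at least 1 sample (383 of 27067). It was also alone without Pos1 (373 of 16643) and without Pos2 (314 of 16337). With all 6 samples, the lowest FDR was that of Cnp, whose L2FC was -2.39 with a standard error (SE) of 0.66 (limma FDR = 0.787). For Mbp the L2FC was -2.73 with an SE of 1.10 (limma FDR = 0.912). The other mature members had L2FC of -1.94 for Mag, -0.55 for Mobp and 0.07 for Mog, of which the last turned to -0.01 with a pseudocount of 0.1 and with voom. The value for Mag was -3.18 with a pseudocount of 0.1, -3.99 with voom and -3.11 without Neg2. The value for Mobp depends on the 1 added before the logarithm and is no bound, since it was -2.15 with a pseudocount of 0.1. Its L2FC was -0.48 with the Dbx1 samples set at 3 reads, which left the median of the 5 mature members at -1.94. The median over all genes tested was 0.01.

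The 4 lineage members had L2FC of -1.36 for Sox10, -1.16 for Olig2, -0.60 for Olig1 and -0.39 for Pdgfra, with a median of -0.88 and a lowest limma FDR of 0.943. None of these 4 had an unadjusted limma p under 0.05 with all 6 samples. Olig2 did without Neg2 (406 of 16509 genes in that direction) and Olig1 did without Pos3 (386 of 16612). The size of the lineage L2FC values depended on single samples of both groups. Olig1 turned to 0.02 when Pos2, its lowest sample, was left out and was -1.22 without Pos3. Olig2 was -2.44 without Neg2, -1.75 without Pos3, -0.65 without Pos2 and -0.52 with voom. Sox10 was -2.40 without Neg2, -2.43 with voom and -2.18 with a pseudocount of 0.1. Pdgfra was -0.66 without Neg3, -1.09 with voom and -1.13 with a pseudocount of 0.1.

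Without Neg1, the L2FC fell in size by more than 1.5 times for Mbp, Mag, Olig1, Olig2, Pdgfra and, least, Cnp. It was then -1.26 for Mbp, -0.88 for Mag, -1.58 for Cnp, -0.30 for Olig1, -0.05 for Olig2 and -0.12 for Pdgfra. Mog stayed near 0, at 0.08. Mobp and Sox10 had too few samples above 0 to enter that fit. Cnp and Mbp were the members for which Neg2 and Neg3 alone were both above all Dbx1 samples, among 7 members tested.

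**Figure D2:**
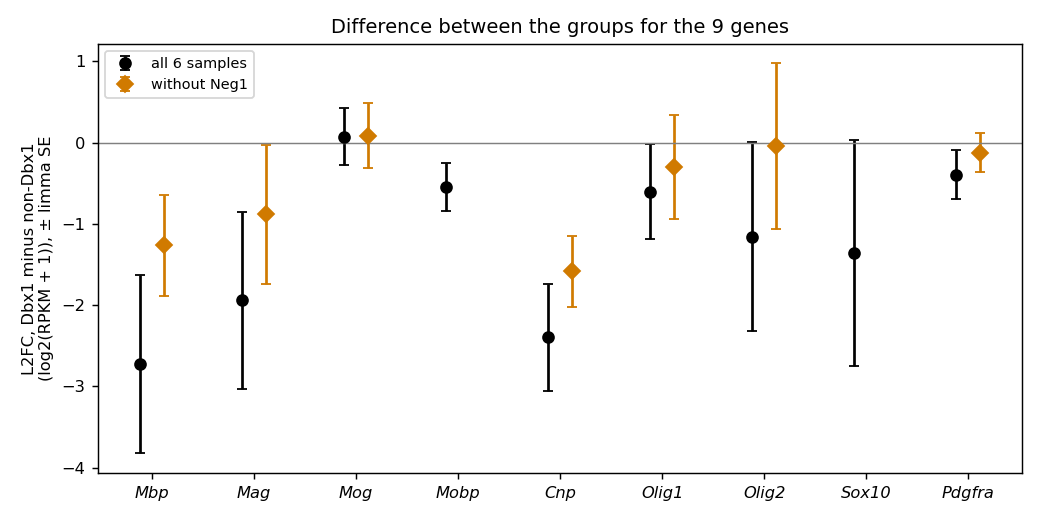
Difference between the groups for each of the 9 genes, as L2FC (Dbx1 minus non-Dbx1, log2(RPKM + 1)) with limma standard errors, from all 6 samples in black and without Neg1 in orange. Removing Neg1 moves Mbp from -2.73 to -1.26 and Cnp from -2.39 to -1.58, while Mobp and Sox10 could not be fitted without it.

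Counted by overlap, Mbp and Cnp had every non-Dbx1 sample above every Dbx1 sample, and 0 members had the reverse. Mobp separated too, but a gene at 0 in all Dbx1 samples could enter the fit only by separating, so it is not counted. Over all genes tested, 923 (5.24%) separated in the first direction and 943 (5.35%) in the other. Without Neg1, 2 of 7 members separated in the first direction, against 10.3% of the 16578 genes tested, and 0 in the other, against 10.8%. None of the lineage members separated.

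Genes of the steps between precursor and myelin were examined with lists drawn up with earlier results of these data known. The 8 genes of committed and newly formed oligodendrocytes were all highest in Neg1, against 21.5% of all genes tested. Bcas1, a marker of cells that are starting to myelinate, was 0, 1.75 and 0.454 RPKM in Pos1 to Pos3 and 80.5, 4.18 and 2.81 in Neg1 to Neg3. Enpp6, a phosphodiesterase of newly formed oligodendrocytes, was 0.0284, 0.569 and 0 in Pos1 to Pos3 and 53.0, 1.79 and 1.12 in Neg1 to Neg3. In both genes Neg1 stood far above the others, and Neg2 and Neg3 still lay above all Dbx1 samples.

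Sirt2, a deacetylase abundant in myelinating cells, was 10.5, 8.96 and 13.2 RPKM in Pos1 to Pos3 and 72.7, 14.8 and 24.5 in Neg1 to Neg3. Lims2, an adapter at cell adhesions, was 7.23, 6.69 and 5.62 in Pos1 to Pos3 and 23.3, 9.62 and 21.7 in Neg1 to Neg3, with Neg1 hardly above Neg3. Gpr17, a receptor confined largely to the committed stage, reached 55.4 RPKM in Neg1 and at most 0.652 elsewhere. That was 84.9 times the next highest sample, the widest gap among the genes of this list and the 9 members. Bmp4 (25.3), Itpr2 (16.6) and Tcf7l2 (2.02), which like Gpr17 are named after their values were seen, were also highest in Neg1 in RPKM.

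No gene of the committed list passed the FDR threshold in limma (lowest FDR = 0.870). An unadjusted p under 0.05 with the higher level in non-Dbx1 samples was found for 3 of 8, against 2.48% of all genes tested. Without Neg1 it was found for 4 of 8, against 2.9%, and with voom for 0 of 7, against 331 of 13940 genes. The median L2FC of the list in limma was -1.79, and -0.86 without Neg1, against 0.01 over all genes tested in both fits. Groups did not overlap for 6 of the 8, which were Gpr17, Bcas1, Enpp6, Bmp4, Lims2 and Sirt2, all higher in non-Dbx1 samples, against 5.24% of all genes tested. These 6 also separated without Neg1, where 10.3% of all genes did. With or without Neg1, Gpr17 separated only by 4 recovered reads in Neg3 (0.0816 RPKM) against 2 in Pos2 (0.0511 RPKM).

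Of the 10 other precursor genes, 4 were highest in Neg1, and they were Cspg4, Nkx2-2, Sox8 and Neu4. Of these only Sox8 was tested, so 1 of 6 tested genes was highest there, against 21.5% of all genes tested. C1ql1, a secreted protein, was 9.39, 30.7 and 27.7 RPKM in Pos1 to Pos3 and 14.1, 39.7 and 13.6 in Neg1 to Neg3. Lhfpl3 ran from 6.93 to 25.8 RPKM over the samples, with 11.5 in Neg1, and Ptprz1, a receptor phosphatase that astrocytes also use, was 4.60 RPKM in Neg1 and 5.92 to 11.9 elsewhere. These 3, the most abundant of the list, were present in every sample and were not highest in Neg1. Sox8, a relative of Sox10, was at 0.654, 2.90 and 0 RPKM in Pos1 to Pos3 and 9.50, 3.22 and 6.18 in Neg1 to Neg3, with no overlap. Cspg4, which encodes the NG2 proteoglycan of precursors, reached 0.140 RPKM in Neg1 and at most 0.0239 elsewhere. Nkx2-2, a homeobox gene of the lineage, was 1.15 RPKM in Neg1 and listed at 0 elsewhere. Its reads and its limit of 3 reads are not given, since 1 value above 0 does not fix the length behind them. Neu4 was 3.70 in Neg1, 3.11 in Neg3 and listed at 0 elsewhere. Vcan went the other way, at 3.68, 5.67 and 6.18 RPKM in Pos1 to Pos3 and 3.03, 1.63 and 0.979 in Neg1 to Neg3. Thus 1 of the 6 tested genes separated in each direction, Sox8 and Vcan. Of all genes tested, 5.24% separated with the higher level in non-Dbx1 samples and 5.35% in Dbx1 samples. Pcdh15 ran from 0.577 to 2.00 RPKM, with 1.38 in Neg1. Cspg4, Nkx2-2, Neu4, Vcan and Pcdh15 are named after their values were seen. Of the 10 genes 6 were tested, and 0 passed the FDR threshold in limma. An unadjusted p under 0.05 was found for 1, higher in non-Dbx1 samples, as for 2.48% of all genes tested. The median L2FC of these 6 was 0.18, and -0.0037 without Neg1.

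Among 15 other myelin genes, 5 were highest in Neg1. Among the 9 of them that were tested it was 4, against 21.5% of all genes tested. Gal3st1, an enzyme of myelin sulfatide synthesis, was 4.30, 5.97 and 4.16 RPKM in Pos1 to Pos3 and 35.8, 4.94 and 8.32 in Neg1 to Neg3. Neg1 was 4.30 times the next highest sample, Neg3, and Neg2 lay among the Dbx1 samples. Myrf, the regulator that switches on myelin genes, was 4.55 RPKM in Neg1 and at most 0.260 elsewhere, and is named after its values were seen. Gpr37, also named after its values were seen, went the other way. It was 3.03, 2.40 and 0.879 RPKM in Pos1 to Pos3 and 0.850, 0 and 0 in Neg1 to Neg3. Every Dbx1 sample thus lay above every non-Dbx1 sample, as for 5.35% of all genes tested.

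Omg, Tspan2 and Nkx6-2 were not high in Neg1. Omg, which neurons also express, was 61.8, 115 and 41.3 RPKM in Pos1 to Pos3 and 28.2, 33.3 and 49.9 in Neg1 to Neg3, lowest in Neg1. Tspan2 ran from 14.0 to 31.4 RPKM, with 14.2 in Neg1, and Nkx6-2, a homeobox gene of maturing oligodendrocytes and of some neurons, from 2.35 in Neg1 to 34.2 in Neg3. Ermn and Opalin, which mark late oligodendrocytes, were listed at 0 in all 6 samples, with limits of 0.128 and 0.158 RPKM. Of the 15 genes 9 were tested, 0 passed the FDR threshold in limma and 2 had an unadjusted p under 0.05, 1 in each direction. The gene higher in non-Dbx1 samples was Gjb1, named after its values were seen. It was listed at 0 in all Dbx1 samples and entered the fit only by separating, so it is not counted. Of all genes tested, 2.48% had an unadjusted p under 0.05 with the higher level in non-Dbx1 samples and 2.73% in Dbx1 samples. The median L2FC of these 9 was -0.01, and 0.40 over the 6 genes tested without Neg1.

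**Figure D3:**
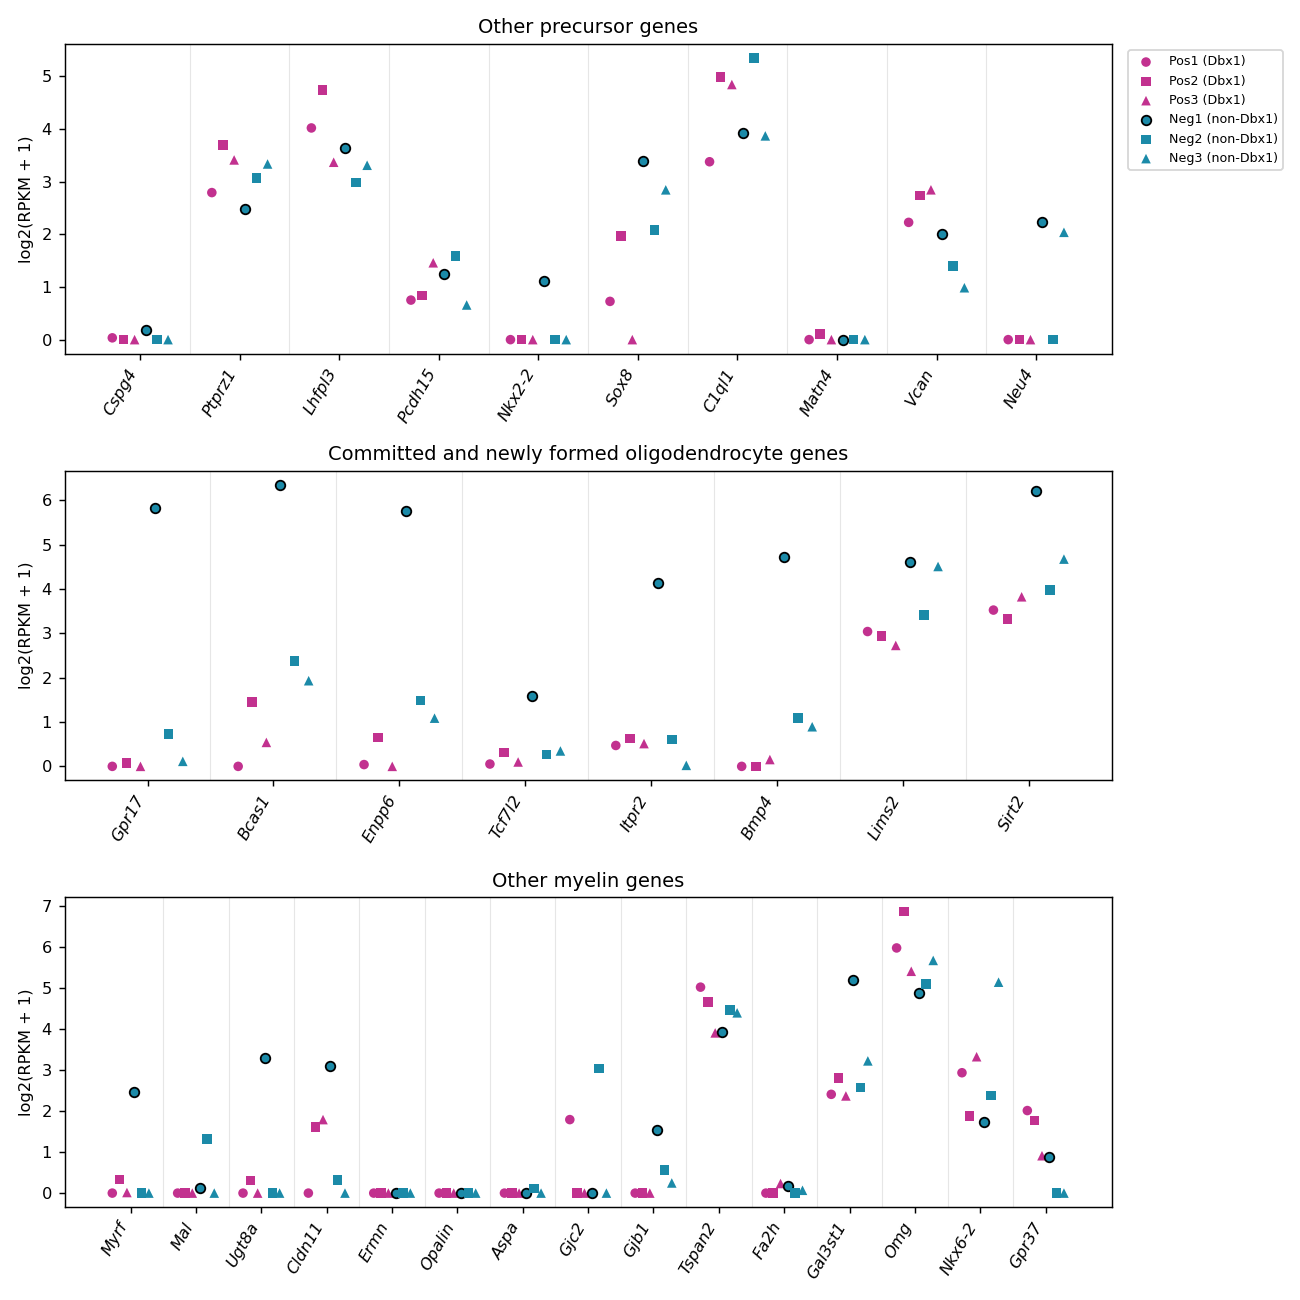
Levels of other precursor genes, committed and newly formed oligodendrocyte genes and other myelin genes in the 6 samples, as log2(RPKM + 1). Neg1, outlined in black, is the highest point for all 8 genes of the committed list, for 4 of 10 precursor genes and for 5 of 15 other myelin genes. Of all genes tested, 21.5% were highest in Neg1.

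Neurons send signals to this lineage and carry partners for its proteins, and these genes were measured in the same samples. Pdgfa, the ligand of PDGFRα, was 7.93, 11.4 and 4.98 RPKM in Pos1 to Pos3 and 17.3, 6.76 and 4.97 in Neg1 to Neg3, whereas the other 6 signals, led by Igf1, Pdgfc and Nrg1, averaged 1.19 RPKM or less. Of the 7 signals 0 passed the FDR threshold in limma and 0 had an unadjusted p under 0.05.

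Receptors through which axons respond to myelin proteins were led by 4 genes that were present in all samples. Rtn4r, which binds MAG, ran from 7.24 to 24.1 RPKM, Lingo1 from 5.05 to 16.9, Rtn4rl1 from 0.199 to 19.5 and Ngfr from 0.644 to 21.8. Pos2 was highest for Lingo1, Rtn4rl1 and Ngfr. All 6 receptors had an L2FC above 0, with a median of 0.58, while 0 passed the FDR threshold in limma and 0 had an unadjusted p under 0.05. Over all genes tested, 49.2% had an L2FC below 0.

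Of the 8 axonal partners of myelin, the adhesion genes Cntn1 (22.7 to 38.6 RPKM), Nrcam (10.6 to 24.5) and Cntnap2 (6.28 to 17.4) lay in Neg1 within the range of the other samples. Nfasc, which has a neuronal and an oligodendrocyte form that gene counts do not separate, was 24.8 RPKM in Neg1 and 2.88 to 7.76 elsewhere. Of these 8 genes 0 passed the FDR threshold in limma. An unadjusted p under 0.05 was found for 1, higher in Dbx1 samples, as for 2.73% of all genes tested.

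Markers of other cells that could enter a pipette were measured beside the 9 genes. Erythroid messages, led by Hbb-bs, Hbb-bt, Hba-a1 and Hba-a2, moved with them, since all 6 erythroid genes were highest in Neg1. The share of all genes tested that were highest there was 21.5%. The summed erythroid RPKM was 90.3, 218 and 507 in Pos1 to Pos3 and 14063, 1198 and 733 in Neg1 to Neg3, with no overlap between the groups. These 4 globin genes separated in the same direction with Neg1, as did 5.24% of all genes tested, and without it, as did 10.3%. Alas2 and Slc4a1 did not separate. The part of this in the levels of the 9 genes was not tested.

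Other lists did not set Neg1 apart to that extent. Schwann cell genes (Pmp22, Egr2 and Prx), of interest because Sox10 and Mbp are also used there, summed to 5.64 RPKM in Neg1 and 0.205 to 10.8 elsewhere, and Prx was listed at 0 in Neg1. Astrocyte genes, led by Gja1, Aqp4, Slc1a3 and Slc1a2, summed to 46.2 RPKM in Neg1, the highest, and 24.6 to 44.8 elsewhere, with genes moving both ways. Gja1 (17.8) and Aldh1l1 (14.4, named after its values were seen) were highest in Neg1, where the others were at most 8.93 and 6.69, and Aqp4 was lowest in Neg1 at 0.0304. Microglial genes, led by C1qb, C1qa, C1qc and Aif1, summed to 21.8 RPKM in Neg1 and 0.202 to 47.6 elsewhere, and Ccl3 and Tnf were listed at 0 in all samples. Endothelial genes, led by Cldn5, Flt1, Tek and Cdh5, summed to 3.90 RPKM in Neg1 and 0.0244 to 68.2 elsewhere, and genes of fibroblasts and mural cells, led by Dcn, Col1a1, Rgs5 and Col1a2, to 13.4 in Neg1, again the highest, and 1.25 to 7.69 elsewhere. How far these lists bear on the 9 genes was not tested.

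**Figure D4:**
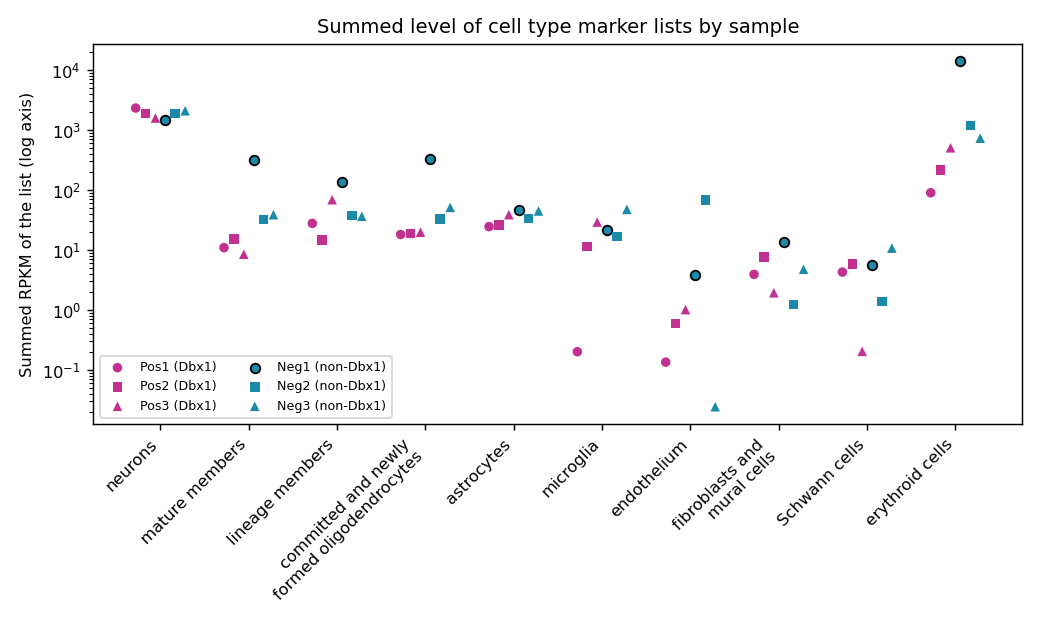
Summed RPKM of each cell type list by sample, on a log axis, with the mature and lineage members beside the others. Neg1, outlined in black, is lowest for neurons at 1449. It is highest for the mature members at 316, the lineage members at 138, the committed list at 329 and the erythroid list at 14063. It is also highest for astrocytes at 46.2 and for fibroblasts and mural cells at 13.4.

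The genes whose pattern over the 6 samples was most like that of the members were found by Pearson's r with the mean log2(RPKM + 1) of each class, among 12609 genes that reached 1 RPKM in 3 samples or more. For the mature members they were Gm43566 (r = 0.99), Gm6265 (0.98), Cldn12 (0.98) and Anapc13 (0.98). For the lineage members they were Fam195a (0.99), Zfp40 (0.99), Ctbp2 (0.98), Gm10039 (0.98) and Ero1lb (0.98). All 9 were highest in Neg1, so r rests largely on that sample, and r is a description over 6 samples that share their libraries. Gm10039 is annotated as a processed pseudogene, whose reads may be shared with near-identical copies.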

How the data were processed

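RNA from 6 samples of 15 neurons was amplified as cDNA and sequenced, aligned by the authors with TopHat2 to mm10 and counted on genes with HTSeq without strand. The authors deposited RPKM values computed with Ensembl exon lengths, with no scaling between samples, and these RPKM are the values used here. The Ensembl release is not given in the sources used here. The counts that the authors tested with another model were not used here, so the test was changed to limma version 3.58.1 in R 4.3.3 on log2(RPKM + 1), with a pseudocount of 1 and a mean-variance trend, two-sided, over genes above 0 in at least 3 samples. Each of the 6 samples is a separate mouse, so p-values measure the spread between 3 mice in each group. An exact permutation test of 3 samples against 3 cannot go below p = 0.1 and was not used.

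Reads on genes were recovered from the steps between RPKM values, 6464675 to 9432958 per sample, and the reads of a gene were taken as the lowest whole counts that fit within a tolerance of 0.01, so the true counts may be a multiple of them. Limits of 3 reads cover counting error only. The fit was tested on simulated data. Positions came from GENCODE vM21 on GRCm38, which matched 47214 of 49568 names, and promoter sequences from RefSeq on GRCm38.p6, which had no entry used here for Olig1 and Sox10. Mature minus lineage levels, Pearson's r and motif counts used Python 3.11.15, numpy 2.4.6, pandas 2.3.3 and, for plots, matplotlib 3.10.9.

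The members and lists were chosen with earlier results of these data known. Named genes are the 9 members, the 4 genes of each list with the highest mean RPKM, any list gene with an FDR under 0.1, cell type genes at 0 in all samples, and the 5 genes most like each class. List genes that are not reported here were left out of the lists, of their counts and of the genes most like the mature members. Other names are marked in the text where they were added.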

Additional observations from a re-analysis of the deposited data

How the results depend on the processing

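The number of genes higher in non-Dbx1 samples at an FDR under 0.1, 1 in the fit reported, was 0 with a pseudocount of 0.1, 0 with genes above 0 in at least 1 sample, 3 without the trend and 0 with voom, and 0 to 1 with 1 sample left out. In Dbx1 samples it was 0, and 0 to 1 with 1 sample left out. With the replicate numbers as a replicate block, the count was 0 in each direction. Same-numbered samples correlated at -0.107 to 0.0248 in their deviations and came from different mice, so the numbers do not pair them. The cause of these changes was not tested.

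No member passed the FDR threshold under any alternative, and the lowest FDR was 0.586, for Cnp. Of 106 L2FC values for members under alternatives, 6 changed sign. Mog, at 0.07, was -0.0076 with a pseudocount of 0.1, -0.012 with voom, and -0.066 to 0.34 with 1 sample left out, including -0.066 without Pos1, -0.057 without Pos2 and -0.063 without Neg3. Olig1, at -0.60, was -1.22 to 0.02 with 1 sample left out, the 0.015 being without Pos2.

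The mature level was below the lineage level in 4 samples, in 0 with Pdgfra alone as lineage and in 1 with merged exon lengths. Of 36 mature minus lineage values under alternatives 17 moved by more than the spread within the group. The comparison with voom, merged exon lengths the overlap counts without Neg1 and the committed list without Neg1 and with voom were chosen after seeing the data. Each group had 3 samples, levels under about 0.1 RPKM rest on few reads, and lengths limit comparisons between genes.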
